A study of Mus musculus with 6 samples.

Results

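A total of 96 genes were expressed in mouse stem-like medulloblastoma cells that carried a control guide. Over the libraries with guides against the long noncoding RNA Miat, their mean level was at most 5% of the control mean. With a single guide some genes kept more, up to 9.60%. A gene entered the set when its level was at least 2 CPM in both control libraries and its mean over the 4 Miat-guide libraries was at most 5% of the control mean. CPM is the count of the gene per 1000000 counts, summed over all gene symbols of the library. Of 24063 symbols in the deposited tables, 11345 reached the CPM minimum in both control libraries and 117 of these (1.03%) also met the 5% limit. Of the 117, 15 were left out by a list of names and 6 as predicted genes or numbered clones, which left 96. The 6 libraries themselves chose these genes, so their low levels with the Miat guides are a description and carry no test.

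The cells are labelled as stem-like medulloblastoma cells from cerebellum of the genotype Math1-Cre; SmoM2, shared by all 6 libraries. SmoM2 is an activated form of Smoothened, the transducer of Hedgehog signalling, and Math1 (Atoh1) regulatory sequence directs the Cre recombinase that switches it on to the granule neuron lineage of the cerebellum. Each of the 3 groups had 2 libraries: the guide sgGal4-4, labelled as wild type, and the guides sgMiat-6 and sgMiat-96, both labelled as Miat knockdown. Gal4 is a yeast protein, so its guide serves as the control. The labels do not say whether the replicates came from separate cultures or whether a group was 1 clone or a pool, so p-values measure only the spread between these samples, which may be technical.

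Medulloblastoma cells grown as stem-like cultures resemble neural progenitors, which express genes of neurons and of glia at low or moderate levels beside those of cell division. Genes for synapses, ion channels and secreted matrix are switched on as such cells mature and are silent in many other cell types. A long noncoding RNA such as Miat is transcribed without being translated, and Miat is known from retina, heart and brain as an RNA retained in the nucleus.

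Over the symbols used here the libraries held between 18438891 and 19650274 counts, so that a single count equals 0.0509 to 0.0542 CPM. Miat itself stood at 7.59 and 7.53 CPM in the control libraries and had 0 counts in each of the 4 Miat-guide libraries. Replicate libraries differed beyond counting noise in each group (chi-square per gene from 4.12 for the control to 19 for sgMiat-6). The 9 granule progenitor and Hedgehog tumour markers summed to between 1008 and 1059 CPM in the control. With the Miat guides they summed to between 610 and 1082 CPM. Most of the control sum was Ccnd2, at a mean of 868 CPM. Atoh1, the defining gene of the lineage, was at 0 in every library. With both Miat guides against the control, 4 of the 9 were lower and 3 higher in edgeR's quasi-likelihood test. Lower on the log2 scale were Gli1 (-2.88), Mycn (-2.40), Gli2 (-2.21) and Ccnd2 (-0.39). Higher were Zic2 (1.32), Zic1 (1.09) and Pax6 (0.36). The 8 astrocyte markers summed to between 3034 and 3082 CPM in the control and between 613 and 864 CPM with the Miat guides. Of these, 6 were lower in edgeR's quasi-likelihood test, 1 was higher, and Gja1 was at 0 throughout. The 8 markers of the oligodendrocyte lineage summed to 2171 to 2216 CPM and 3210 to 4546 CPM, with 3 higher and 1 lower. The 6 neuronal markers summed to 785 to 799 CPM against 255 to 506 CPM, and nearly all of this was Map2. Map2 had a control mean of 791 CPM, was the only one of the 6 tested and was lower (log2 fold change -1.10). Snap25, Slc17a7 and Rbfox3 had control means of 0.650, 0.190 and 0.0271 CPM, and Syt1 and Gabra6 were at 0. The sums therefore describe Map2 and not a set of neuronal markers. Markers of microglia and macrophages never summed to more than 1.14 CPM, with Cx3cr1, Tyrobp, C1qa and C1qb at 0. Markers of endothelium and pericytes reached at most 2.44 CPM and those of fibroblasts and meninges at most 10.5 CPM. None of the 96 genes is among the markers, and the part of these cell-type markers in the results below was not tested.

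Together the 96 genes held 60386 and 58988 counts in the control libraries, which is 0.327% and 0.320% of each library. They held 1114 and 1072 counts with sgMiat-6 and 1202 and 1352 counts with sgMiat-96. The median member stood at 8.35 and 7.94 CPM in the control, at 0.128 and 0.129 CPM with sgMiat-6, and at 0.178 and 0.162 CPM with sgMiat-96. In bulk RNA, fewer cells that express a gene and less RNA of it per cell cannot be told apart. All 96 are annotated as protein coding, although for Tslp and AW011738 the transcript kept here is a noncoding one. All 96 passed the low-count filter of the model, and they did so through the control libraries.

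**Figure D1:**
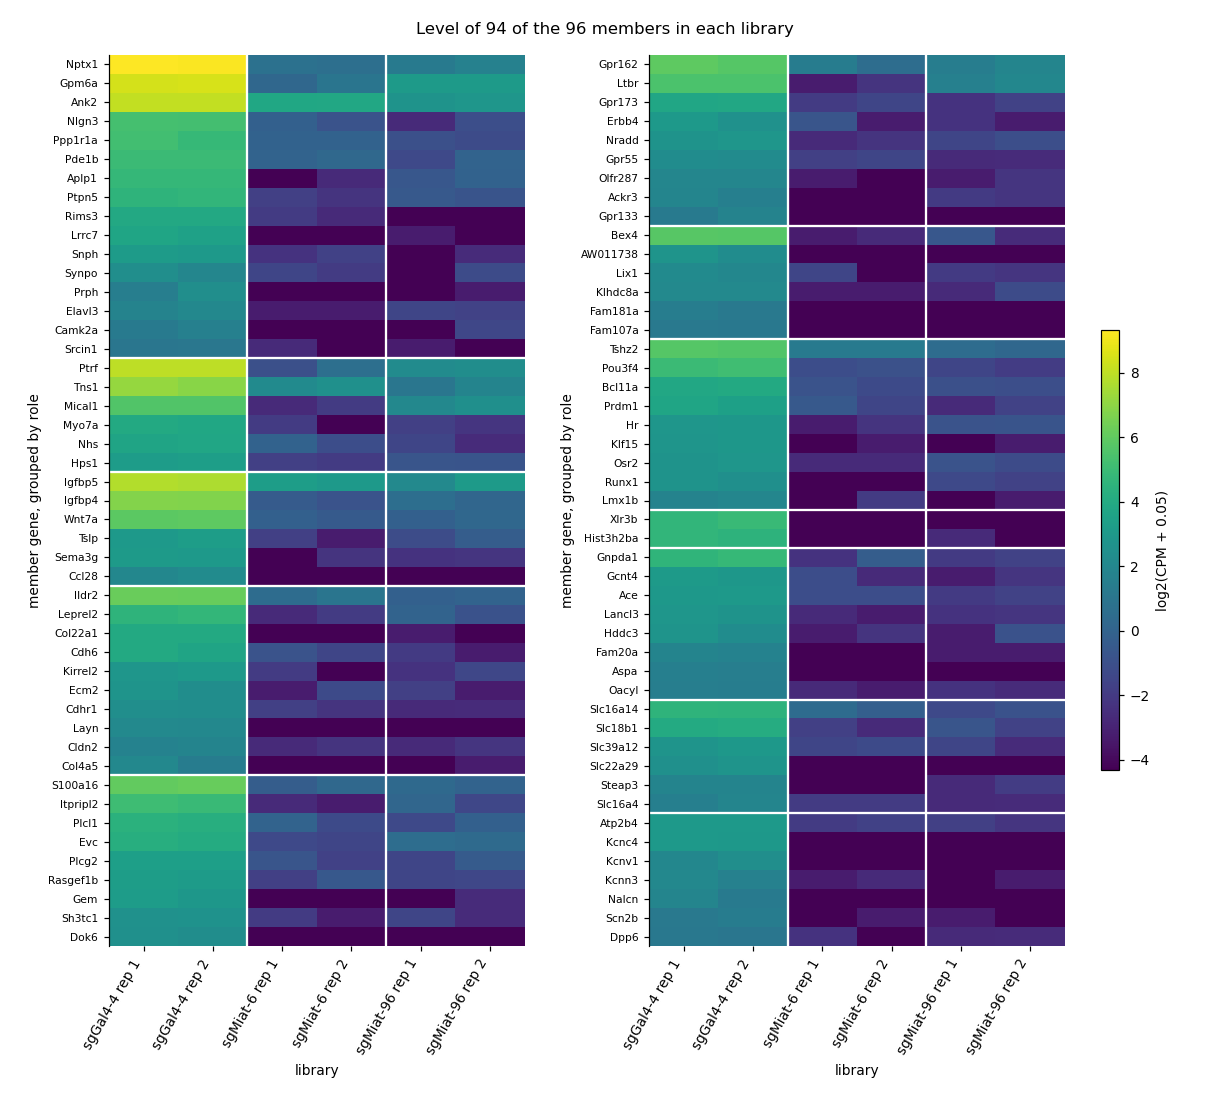
Level of 94 of the 96 genes (rows, grouped by role with white lines between groups) in each of the 6 libraries (columns), as log2(CPM + 0.05). Both sgGal4-4 columns are lighter than all Miat-guide columns for every gene, at 2.00 to 639 CPM, and no Miat-guide library exceeds 14.2 CPM for any of them.

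The control levels were alike between the replicates. The median absolute log2 ratio of the control libraries was 0.12, and the largest belonged to Prph, the intermediate filament peripherin, at 2.82 and 5.26 CPM. Control means ran from 2.03 to 626 CPM with a median of 8.19 CPM, and 29 of the 96 lay below 5 CPM. The 5 genes with the most counts, Nptx1, Gpm6a, Ank2, Ptrf and Igfbp5, held 52.6% of the summed control level. For 78 genes even the highest of the 4 Miat-guide libraries was under 1 CPM, for 12 it was from 1 to under 5 CPM, and for 6 it was at least 5 CPM. The narrowest gap was that of Camk2a, whose lowest control library was 7.35 times its highest Miat-guide library.

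The neuronal and synaptic genes formed the largest role group, with 17 members and a median of 1.67% of the control level left. Nptx1 encodes neuronal pentraxin 1, a secreted protein that gathers AMPA-type glutamate receptors at synapses. It stood at 639 and 613 CPM in the control, at 1.64 and 1.55 CPM with sgMiat-6 and at 2.29 and 3.08 CPM with sgMiat-96. It lies at chr11:119538719-119547753 on the minus strand of GRCm38, and its control level per transcript length was 76.9 FPKM, the authors' deposited unit. Gpm6a, a membrane proteolipid of growing neurites, stood at 344 and 365 CPM in the control, at 1.12 and 1.91 CPM with sgMiat-6 and at 8.65 and 8.60 CPM with sgMiat-96. Both sgMiat-96 libraries of Gpm6a lay above both sgMiat-6 libraries, and all 4 were far under the control. Ank2 encodes ankyrin-B, which ties membrane channels and transporters to the spectrin skeleton. Its levels were 269 and 267 CPM in the control, 13.7 and 14.2 CPM with sgMiat-6 and 6.46 and 7.08 CPM with sgMiat-96, so that here the sgMiat-6 libraries were the higher ones.

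Other synaptic members covered both sides of the synapse. Nlgn3, a postsynaptic adhesion protein, stood at 38.7 and 37.9 CPM in the control and between 0.102 and 0.869 CPM with the Miat guides. Rims3, a protein of the presynaptic release zone, had 15.2 and 15 CPM in the control, 0.204 and 0.103 CPM with sgMiat-6 and 0 counts with sgMiat-96. It was the only member at 0 in both sgMiat-96 libraries with counts in an sgMiat-6 library. Lrrc7, a postsynaptic scaffold protein also called densin, stood at 13 and 11.1 CPM in the control and had a single count among the 4 Miat-guide libraries. Calcium and phosphate signalling in neurons was represented by Pde1b, a calmodulin-dependent phosphodiesterase (31.8 and 32.0 CPM in the control, 0.356 to 1.19 CPM with the guides), by Ptpn5, a tyrosine phosphatase of striatal neurons (23.3 and 25 CPM, 0.155 to 0.662 CPM), and by Ppp1r1a, an inhibitor of protein phosphatase 1 (36.5 and 28.3 CPM, 0.379 to 0.931 CPM). Aplp1, a neuronal relative of the amyloid precursor protein, stood at 27.6 and 27.5 CPM in the control, at 0 and 0.103 CPM with sgMiat-6 and at 0.611 and 0.919 CPM with sgMiat-96. Snph, Synpo, Prph, Elavl3, Camk2a and Srcin1 had control means below 10 CPM.

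The nearest relatives of the neuronal genes moved in different ways. Nptxr, the membrane-bound pentraxin that assembles with Nptx1, had a log2 fold change of -0.01 ± 0.10 (SE) with both Miat guides against the control in edgeR's quasi-likelihood test (adjusted p = 0.934). It stood at 91.4 ± 4.85 CPM in the control, 86.9 ± 3.33 and 79.5 ± 9.12 CPM with sgMiat-6 and sgMiat-96, given in this order throughout (mean ± SD over the 2 libraries of each group, as for all such values). Gpm6b, the sister gene of Gpm6a, fell by 0.56 on the log2 scale. App did not pass the test (0.18 ± 0.10, adjusted p = 0.123), although it did without sgMiat-6 replicate 2 (0.22, adjusted p = 0.0467), while Aplp2 rose by 1.24 (log2), from 906 ± 18.5 CPM to 2146 ± 228 and 1795 ± 112 CPM. Stx1a rose by 0.83 and Nlgn2 by 0.62 on the log2 scale. Of the neuronal Elav genes, which bind RNA, Elavl2 fell by 1.57 and Elavl4 by 3.06. In the Camk2 family Camk2b rose by 1.40 and Camk2d fell by 1.04, and Rims2 fell by 1.10. Ank3 did not pass the test (-0.24 ± 0.15, adjusted p = 0.184), although it did without sgMiat-6 replicate 1 (-0.41).

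Ion channels and pumps made up 7 members, all below 10 CPM in the control, and a median of 1.06% of the level was left. Kcnc4, a potassium channel of the Kv3 family, stood at 8.35 and 7.75 CPM in the control and at 0 counts in all 4 Miat-guide libraries. Kcnv1, a silent subunit that joins other potassium channels, had 3.96 and 5.26 CPM in the control and 0 counts with either guide. Nalcn, a sodium leak channel that sets the resting potential of neurons, had 3.69 and 2.38 CPM in the control and likewise 0 counts. Kcnn3 (a calcium-activated potassium channel), Scn2b (a sodium channel beta subunit), Dpp6 (an auxiliary subunit of Kv4 channels) and Atp2b4 (a plasma membrane calcium pump) kept between 0 and 0.259 CPM in any Miat-guide library. Among their relatives Kcnc1 rose by 0.69 on the log2 scale and Kcnn4 rose from 0.325 ± 0.15 to 20 ± 0.97 and 8.65 ± 1.30 CPM, while Kcnn2 fell by 0.61 (adjusted p = 0.00475) and Atp2b1 by 0.52. Without sgGal4-4 replicate 1 the fall of Kcnn2 was not called (-0.59, adjusted p = 0.0575).

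Secreted signals and the proteins that bind them were 6 members with a median of 1.43% left. Igfbp5 and Igfbp4 encode binding proteins that hold insulin-like growth factors in the extracellular space. Igfbp5 stood at 212 and 197 CPM in the control, at 9.76 and 8.23 CPM with sgMiat-6 and at 4.22 and 8.49 CPM with sgMiat-96. Igfbp4 stood at 111 and 107 CPM, 0.716 and 0.517 CPM, and 1.48 and 1.08 CPM in the same order. The sgMiat-6 and sgMiat-96 libraries of Igfbp4 did not overlap, whereas those of Igfbp5 did. Of the other family genes tested, 3 rose and Igfbp6 did not pass the test (-0.50 ± 0.51 on the log2 scale, adjusted p = 0.401): Igfbp2 rose from 1499 ± 30.9 CPM to 1877 ± 182 and 2748 ± 85.7 CPM, and Igfbp3 rose from 929 ± 3.99 to 1709 ± 114 and 1323 ± 0.0439 CPM. Igfbp7 rose from 1.00 ± 0.19 to 2.11 ± 0.31 and 3.09 ± 0.16 CPM. Igfbp2 lies 50.4 kb from Igfbp5 on chromosome 1.

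Wnt7a, a secreted Wnt ligand that acts on neighbouring neural and endothelial cells, stood at 59.5 and 62.0 CPM in the control, at 0.869 and 0.673 CPM with sgMiat-6 and at 0.865 and 1.14 CPM with sgMiat-96. The libraries of the Miat guides overlapped for Wnt7a, and the difference between the guides did not pass edgeR's test (log2 difference 0.52, adjusted p = 0.231). Its sister gene Wnt7b fell too, from 91.2 ± 1.98 CPM to 11.9 ± 0.28 and 8.19 ± 1.58 CPM, a log2 fold change of -3.08 ± 0.11 (adjusted p = 1.64e-10), but it remained above the 5% limit. Sema3g, a class 3 semaphorin that guides axons and vessels, stood at 8.62 and 8.07 CPM in the control and at most at 0.162 CPM with the guides. The other class 3 semaphorins that were tested all fell, Sema3a by 1.71, Sema3b by 2.38 and Sema3f by 1.67 on the log2 scale. Tslp, an epithelial cytokine, stood at 8.19 and 9.64 CPM in the control and between 0.0517 and 0.757 CPM with the guides. Ccl28, a chemokine of mucosal surfaces, had 3.90 and 4.66 CPM in the control and 0 counts with either guide.

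The receptors were 9 members with a median of 2.89% left. Gpr162, an orphan G protein-coupled receptor, stood at 61.6 and 53.1 CPM in the control, at 2.61 and 1.40 CPM with sgMiat-6 and at 2.75 and 3.68 CPM with sgMiat-96. Ltbr, the lymphotoxin beta receptor of the tumour necrosis factor receptor family, stood at 44.4 and 44.0 CPM in the control, at 0.0511 and 0.155 CPM with sgMiat-6 and at 3.05 and 3.95 CPM with sgMiat-96. Its 2 guides thus left 0.233% and 7.92% of the control level. Erbb4, a receptor tyrosine kinase for neuregulins, stood at 8.30 and 5.91 CPM in the control and between 0.0517 and 0.562 CPM with the guides. Egfr, from the same family, fell by 1.59 on the log2 scale. It went from 305 ± 17 CPM to 122 ± 29.4 and 70.6 ± 5.18 CPM. Ackr3, an atypical receptor that takes up the chemokine Cxcl12, had 3.69 and 2.87 CPM in the control, 0 counts with sgMiat-6 and 0.204 and 0.162 CPM with sgMiat-96. Gpr133, an adhesion G protein-coupled receptor, had 2.39 and 3.36 CPM in the control and 0 counts with either guide. Gpr173, Gpr55, Nradd and the odorant receptor gene Olfr287 completed the group with control means from 3.74 to 14.1 CPM.

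Transcriptional regulators numbered 9 with a median of 2.82% left. Tshz2, a teashirt zinc finger protein, stood at 52.5 and 48.2 CPM in the control, at 2.45 and 2.33 CPM with sgMiat-6 and at 1.37 and 1.14 CPM with sgMiat-96. Pou3f4, a POU homeodomain factor of neural and inner ear development, stood at 31.6 and 35.2 CPM in the control and between 0.216 and 0.466 CPM with the guides. Its relatives split: Pou3f1 rose by 2.00 on the log2 scale, from 17.9 ± 2.27 to 64.9 ± 0.83 and 65.7 ± 2.19 CPM, and Pou3f2 fell by 1.09. Runx1, a runt-domain factor of blood and sensory neuron development, had 6.40 and 5.53 CPM in the control, 0 counts with sgMiat-6 and 0.356 and 0.270 CPM with sgMiat-96, and its relative Runx2 fell by 1.42 on the log2 scale. Bcl11a, a zinc finger repressor, stood at 14.4 and 15.4 CPM in the control and between 0.362 and 0.511 CPM with the guides. Prdm1, Hr, Klf15, Osr2 and Lmx1b had control means from 3.55 to 12 CPM. Of the relatives of Tshz2, Tshz1 fell by 0.99 on the log2 scale and Tshz3 rose by 0.42 (adjusted p = 0.0133), a call lost with total-count scaling (0.29) and without either control replicate (0.36 and 0.47).

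Matrix, adhesion and junction proteins numbered 11 with a median of 1.78% left. Ildr2, an immunoglobulin-domain protein of the family found where 3 cells meet, stood at 73.8 and 70.1 CPM in the control, at 1.38 and 1.91 CPM with sgMiat-6 and at 0.865 and 0.973 CPM with sgMiat-96. Leprel2, a prolyl hydroxylase that modifies collagen, stood at 23.8 and 25.8 CPM in the control and between 0.102 and 0.967 CPM with the guides. Col22a1, a collagen of tissue junctions, had 15.4 and 15.8 CPM in the control and a single count among the 4 Miat-guide libraries. Layn, a hyaluronan receptor, had 4.23 and 4.12 CPM in the control and 0 counts with either guide. Of the basement membrane collagens, Col4a5 had 4.07 and 2.60 CPM in the control and a single count with the guides, and Col4a1 and Col4a2 fell by 1.78 and 1.90 on the log2 scale without nearing the limit. Cdh6, a type II cadherin, stood at 15.3 and 12.3 CPM in the control and at most at 0.511 CPM with the guides. Cdh10, of the same family, rose from 2.30 ± 0.27 CPM to 23.6 ± 1.58 and 14 ± 0.18 CPM. Cdhr1, Cldn2, Ecm2 and Kirrel2 had control means from 3.39 to 7.56 CPM.

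Genes of the cytoskeleton, membrane shape and organelles were 6 members with a median of 3.18% left. Ptrf encodes cavin-1, a coat protein of the membrane pits called caveolae. It stood at 250 and 245 CPM in the control, at 0.460 and 1.55 CPM with sgMiat-6 and at 4.73 and 5.08 CPM with sgMiat-96. The other cavins tested moved up: Sdpr (cavin-2) rose from 7.59 ± 2.14 CPM to 137 ± 21.9 and 99.4 ± 1.51 CPM, a log2 fold change of 4.07 ± 0.17, and Prkcdbp (cavin-3) rose by 0.72 on the log2 scale. Tns1, a tensin that links integrins to actin, stood at 143 and 121 CPM in the control, at 4.60 and 5.74 CPM with sgMiat-6 and at 1.98 and 3.52 CPM with sgMiat-96. Mical1, an enzyme that oxidises actin filaments, stood at 49.5 and 49.2 CPM in the control, at 0.102 and 0.207 CPM with sgMiat-6 and at 4.02 and 5.46 CPM with sgMiat-96. With 9.60% of the control level left with sgMiat-96 and 0.313% with sgMiat-6, Mical1 had the highest level left with a single guide. Mical2 fell by 1.82 on the log2 scale. Myo7a (a myosin of sensory hair cells), Nhs and Hps1 (a factor for lysosome-related organelles) had control means from 9.65 to 14.7 CPM.

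Intracellular signalling and ciliary genes were 9 members with a median of 2.75% left. S100a16, a small calcium-binding protein, stood at 65.1 and 70.4 CPM in the control, at 0.767 and 1.19 CPM with sgMiat-6 and at 1.22 and 0.973 CPM with sgMiat-96. S100a10, a relative that partners with annexins, rose by 1.54 on the log2 scale to 370 ± 30.0 and 326 ± 20.4 CPM, and S100a4 fell by 3.14 from 1.38 ± 0.34 CPM. Of the 4 S100A relatives tested 3 rose and 1 fell, with a median log2 fold change of 3.78. Evc sits at the base of the primary cilium, where its complex promotes Hedgehog signalling downstream of Smoothened. It stood at 19 and 16.6 CPM in the control, at 0.358 and 0.310 CPM with sgMiat-6 and at 1.42 and 1.24 CPM with sgMiat-96. Evc2, its partner in that complex, begins 1.60 kb away on chromosome 5 and fell far less, by 0.66 on the log2 scale. Evc2 went from 21.6 ± 1.70 CPM to 14.5 ± 0.42 and 10.9 ± 2.47 CPM. Itpripl2 stood at 33.6 and 30.2 CPM in the control, at 0.102 and 0.0517 CPM with sgMiat-6 and at 1.07 and 0.324 CPM with sgMiat-96. Dok6, an adaptor of receptor tyrosine kinases, had 5.64 and 5.15 CPM in the control and 0 counts with either guide. Plcl1, Plcg2, Rasgef1b, Gem and Sh3tc1 had control means from 6.10 to 19.9 CPM. Plcl1 overlaps a predicted gene on the opposite strand that had 3101 counts in the control and 6144 with the guides, and since the strand setting of the count is not known, its reads cannot be told apart from those of that gene. The same holds for Ecm2, a matrix protein, whose partner on the opposite strand had 542 and 1091 counts. It also holds for Tslp, Gpr173 and Ace, whose opposite-strand partners had 78 and 27, 52 and 11, and 42 and 2 counts.

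Transporters were 6 members with a median of 2.78% left, enzymes and related proteins 8 members with 1.99%. Slc16a14, of the monocarboxylate transporter family, stood at 23.4 and 22.5 CPM in the control, at 1.33 and 0.828 CPM with sgMiat-6 and at 0.356 and 0.487 CPM with sgMiat-96. In the same family Slc16a1 fell by 0.72 on the log2 scale. Slc22a29, of the organic anion transporter family, had 5.80 and 6.66 CPM in the control and 0 counts with either guide. Steap3, a reductase of endosomal iron, had 3.47 CPM in both control libraries, 0 counts with sgMiat-6 and 0.102 and 0.216 CPM with sgMiat-96. Aspa, which breaks down N-acetylaspartate, had 2.87 and 2.76 CPM in the control and 0 counts with either guide. The remaining enzymes, among them Gnpda1, Gcnt4 and Ace, the angiotensin-converting enzyme, kept at most 0.776 CPM in any Miat-guide library.

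Xlr3b, a gene of the X chromosome that is imprinted in mouse brain, had 470 and 560 counts in the control libraries, which is 25.5 and 30.3 CPM, and not a single count in the 4 Miat-guide libraries. Hist3h2ba, a histone H2B gene outside the main histone clusters, stood at 25.1 and 22.8 CPM in the control and had 2 counts in all with the guides. Both have near-identical relatives, as Slc22a29 does, so that reads may have been split between copies and their values are uncertain. Bex4, an X-linked gene of a brain-expressed family, stood at 54.1 and 52.9 CPM in the control, at 0.0511 and 0.103 CPM with sgMiat-6 and at 0.611 and 0.108 CPM with sgMiat-96. Bex2, 70.8 kb from it, fell from 128 ± 9.33 to 25.1 ± 4.11 and 11 ± 0.71 CPM.

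**Figure D2:**
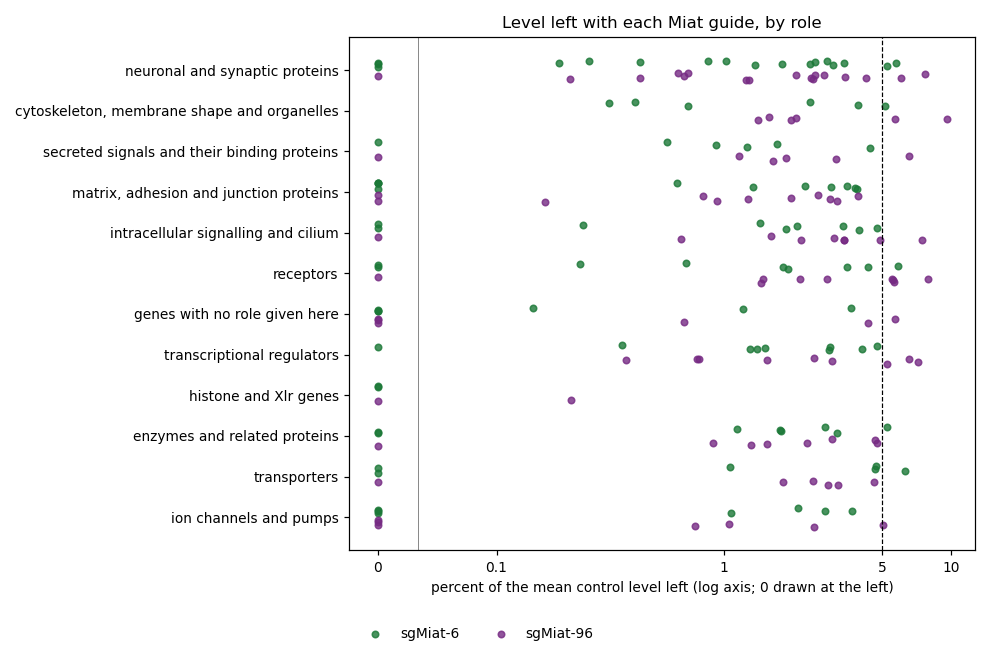
Percent of the mean control level left with sgMiat-6 and with sgMiat-96 for each of the 96 genes, by role, on a log axis with genes at 0 counts drawn at the left. The dashed line marks 5%, which 6 genes exceed with sgMiat-6 (up to 6.27%) and 15 with sgMiat-96 (up to 9.60%), and every role group has genes well below 5% with both guides.

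In all, 14 of the 96 genes had 0 counts in each Miat-guide library, among them Xlr3b, Kcnc4, Slc22a29, AW011738, Dok6, Kcnv1, Ccl28, Layn, Nalcn, Gpr133, Aspa, Fam181a and Fam107a. Of those not described above, AW011738 stood at 6.72 and 4.98 CPM in the control, Fam181a at 2.66 and 2.22 CPM and Fam107a at 2.22 and 2.17 CPM. Against a floor of 3 counts over the 4 libraries, Xlr3b was at least 717-fold lower, Kcnc4 at least 207-fold, Slc22a29 at least 160-fold and AW011738 at least 150-fold. The bounds of the other 10 ran from 139-fold for Dok6 down to 56.4-fold for Fam107a, and they follow the control counts, which were 199 and 81 for these genes. These bounds cover the counting error of the Miat-guide libraries only and take the control counts as exact. A further 10 genes had 1 to 3 counts in the 4 libraries together, and 72 had 4 or more. With sgMiat-6, 25 genes were at 0 in both libraries. With sgMiat-96, 15 were. A relative of Fam181a, Fam181b, rose by 1.30 (log2).

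The median gene kept 1.36% of its control level with sgMiat-6 and 1.98% with sgMiat-96, percentages that share the same control libraries. At the edge of the set stood Synpo, an actin-associated protein of dendritic spines, with 4.99% left (5.21 and 3.74 CPM in the control), Mical1 with 4.96% and Slc16a4, a monocarboxylate transporter family gene, with 4.74%. Slc16a4 had 2.93 and 3.63 CPM in the control, 0.204 and 0.207 CPM with sgMiat-6, and 0.102 and 0.108 CPM with sgMiat-96. Synpo had 0.307 and 0.207 CPM with sgMiat-6 and 0 and 0.379 CPM with sgMiat-96. Just outside stood Ntng2 with 5.07% left, Robo2 with 5.12% and Nlrx1 with 5.19%, so the limit falls within an even run of values. Of the 96 genes, 60 were at or under 5% of the control mean in each single Miat-guide library.

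The comparison of sgMiat-96 with sgMiat-6 sets the Miat guides against each other. The rule limited the mean of these 4 libraries but not the difference between the guides, and the control libraries entered the model through the low-count filter and the shared estimate of the spread. The counts of called genes are therefore given as a description of the 96 and support nothing about the choice of them. In this comparison 20 of the 96 genes were higher and 5 were lower with sgMiat-96 (edgeR's quasi-likelihood test, adjusted p under 0.05 over all 13220 genes tested), where 17.8% of all genes were higher and 18.8% were lower. The 20 make 20.8% of the 96 and the 5 make 5.21%. Of the 96, 14 had 0 counts in all 4 libraries and could not be called. Shares over all genes of the same depth were not computed, so no reading against the background is drawn. The median log2 difference was 0.16 over the 96 and 0.01 over all genes. With libraries scaled by total counts alone, 18 were higher and 8 lower, against 10.4% higher and 28.1% lower over all genes, whose median then lay at -0.14. By depth, of the 40 genes with at least 20 counts in the 4 libraries 16 were higher and 4 lower, and of the other 56 genes 5 were called. What size of difference could have been detected at such counts was not tested.

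**Figure D3:**
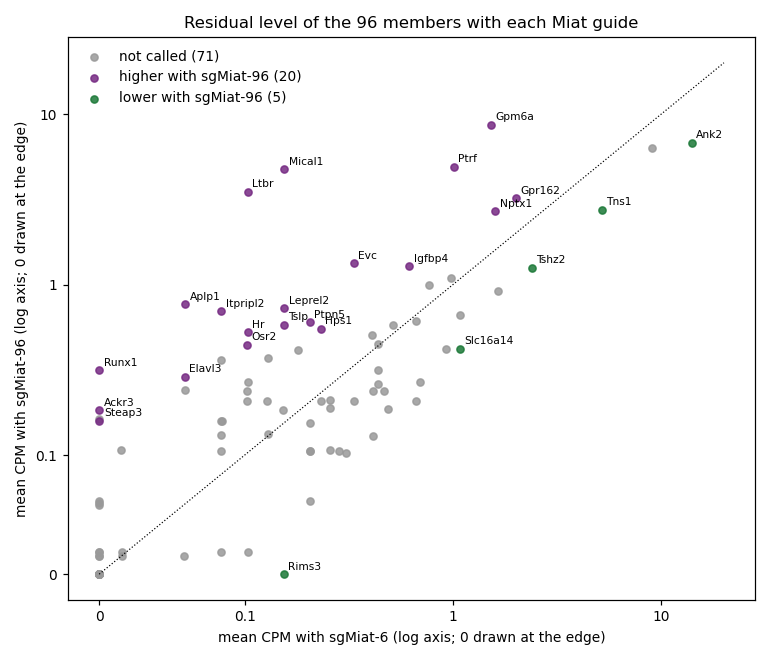
Mean CPM with sgMiat-96 against mean CPM with sgMiat-6 for the 96 genes (log axes, 0 drawn at the edge, dotted line of equality). The 20 genes called higher with sgMiat-96 lie above the line, led by Ltbr and Mical1, and the 5 called lower, among them Ank2 and Tns1, lie below it.

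The largest ratios with counts in both groups were those of Ltbr and Mical1, and the fitted log2 differences of Runx1, Ackr3 and Steap3, also among the 5 largest, rest on a group at 0 counts. Ltbr had 4 counts with sgMiat-6 and 133 with sgMiat-96, a 33.9-fold ratio of the mean levels and a log2 difference of 5.15 ± 0.40 (adjusted p = 2.23e-05). Mical1 had 6 and 180 counts, a ratio of 30.6 and a log2 difference of 5.03 ± 0.36 (adjusted p = 1.39e-05). Both genes were thus low with either guide but separated the guides by over an order of magnitude. Runx1, Ackr3 and Steap3 had 0 counts with sgMiat-6 and 12, 7 and 6 counts with sgMiat-96. With a floor of 3 counts in place of 0 over the sgMiat-6 libraries, their ratios were 4.08, 2.38 and 2.04. These ratios are not lower bounds, since the sgMiat-96 counts were taken as exact. Aplp1, with 2 and 29 counts, was 14.8-fold higher (95% interval of the ratio 3.74 to 128, counting error only), and Itpripl2, with 3 and 27 counts, 9.18-fold (2.82 to 47.3). Elavl3 had 2 and 11 counts, a ratio of 5.61 (1.22 to 52.1). Among genes with more counts, Gpm6a differed by 2.65 ± 0.21 (adjusted p = 2.23e-05), Ptrf by 2.43 ± 0.31, Evc by 2.13 ± 0.38, Igfbp4 by 1.20 ± 0.32 and Nptx1 by 0.90 ± 0.22 on the log2 scale.

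The 5 genes lower with sgMiat-96 were Rims3, Slc16a14, Ank2, Tshz2 and Tns1. Rims3 had 6 counts with sgMiat-6 and 0 with sgMiat-96. With a floor of 3 counts in place of 0 its ratio was 1.96, which is no bound either, since the sgMiat-6 counts were taken as exact. Ank2, with 544 and 258 counts, differed by -0.90 ± 0.13 on the log2 scale (adjusted p = 0.000814), and Slc16a14, with 42 and 16 counts, by -1.20 ± 0.40 (adjusted p = 0.0313). Tshz2 and Tns1 both differed by -0.77, with standard errors of 0.25 and 0.24. Of the 25 genes called, 7 kept the call and its direction under every one of 11 other settings: Ltbr, Mical1, Gpm6a, Ptrf, Evc and Aplp1 as higher and Ank2 as lower. The other 18 lost the call in at least 1 setting and none changed direction. Over all 96 genes, 7 were called higher and 1 lower without sgMiat-96 replicate 1, 12 and 2 without sgMiat-6 replicate 1, and 11 and 5 without sgMiat-6 replicate 2. Of the 25 calls, 8, 14 and 15 held in these settings, and the gene called beyond them in the last one was Nhs (log2 difference -1.96, adjusted p = 0.0228). Without sgMiat-96 replicate 2, 15 of the 25 held and Bex4, Igfbp5, Nlgn3 and Pde1b were called as well. Without either control replicate 22 of the 25 held. Of the genes with the largest fitted differences, Runx1 was not called without sgMiat-96 replicate 1 (highest adjusted p = 0.0585), and Rims3, Slc16a14, Ackr3 and Steap3 lost the call without sgMiat-96 replicate 1 and in other settings, with highest adjusted p-values of 0.155, 0.234, 0.125 and 0.145.

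Since only 1 transcript row per gene was used, the other rows of the same genes were examined as a description. Of the 96 genes, 23 had more than 1 row, 37 other rows in all. At most 5% of the control level was left in 31 of them, and in the other 6 at most 5.73% was left, the highest being a row of Ace. Isoform rows count shared reads, so these rows are not independent of the kept row.

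The genes were spread over the genome. Chromosome 1 held 12 of the 96 (12.5%, against 5.84% of all symbols on in the control), chromosomes 11 and X held 9 each (9.38%, against 8.05% and 3.35%), and chromosome 15 held 8 (8.33%, against 3.97%). Only chromosome Y held none. Of the 96, 65 had another tested gene within 100 kb, 186 neighbours in all. Of these, 69 (37.1%) were higher and 59 (31.7%) were lower with both Miat guides, where 33.1% of all tested genes were higher and 33.4% were lower. The median log2 fold change was 0.07 over the neighbours and 0.00 over all genes. With total-count scaling the neighbours split into 54 higher and 67 lower, where 27.1% of all genes were higher and 39.3% lower and their median lay at -0.13. A single neighbour met both limits of the rule itself, the clone C130021I20Rik, which lies 0.682 kb from Lmx1b and went from 4.15 ± 0.50 CPM in the control to 3 counts in all with the guides.

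The neighbours with the smallest adjusted p moved both ways. Those that fell were Bex2 beside Bex4 (by 2.82 on the log2 scale), Trip12 (by 1.42) and Fbxo36 (by 2.79) beside Slc16a14, Vps13b beside Osr2 (by 1.82) and Pbxip1 beside Kcnn3 (by 1.77). Trip12, a ubiquitin ligase gene 95.8 kb from Slc16a14, went from 471 ± 14.5 CPM to 206 ± 28.0 and 127 ± 16.1 CPM. Those that rose were E130012A19Rik beside Srcin1 (by 2.36), Oaz1-ps beside Lix1 (by 1.36), 2810021J22Rik beside Hist3h2ba (by 3.50), Htra3 beside Sh3tc1 (by 1.92) and S100a13 beside S100a16. S100a13 had 2 counts in the control libraries together and came to 2.29 ± 0.13 and 5.79 ± 0.23 CPM with the guides, while S100a16, 26.7 kb away on chromosome 3, went from 67.7 ± 3.75 to 0.978 ± 0.30 and 1.10 ± 0.18 CPM. Within 100 kb, 3 pairs of members lay together: Gpr162 and Leprel2 on chromosome 6 (6.17 kb apart), Aplp1 and Kirrel2 on chromosome 7 (12 kb) and Pde1b and Ppp1r1a on chromosome 15 (23.1 kb).

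Over the gene families that the members belong to, 120 relatives that are not members were tested. With both Miat guides 45 (37.5%) were higher and 48 (40.0%) lower, where 33.1% and 33.4% of all tested genes were, with a median log2 fold change of -0.07. With total-count scaling the split was 36 (30.0%) and 52 (43.3%), against 27.1% and 39.3% of all tested genes. The shares lay near those of all tested genes under each scaling. The relatives named above are examples.

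**Figure D4:**
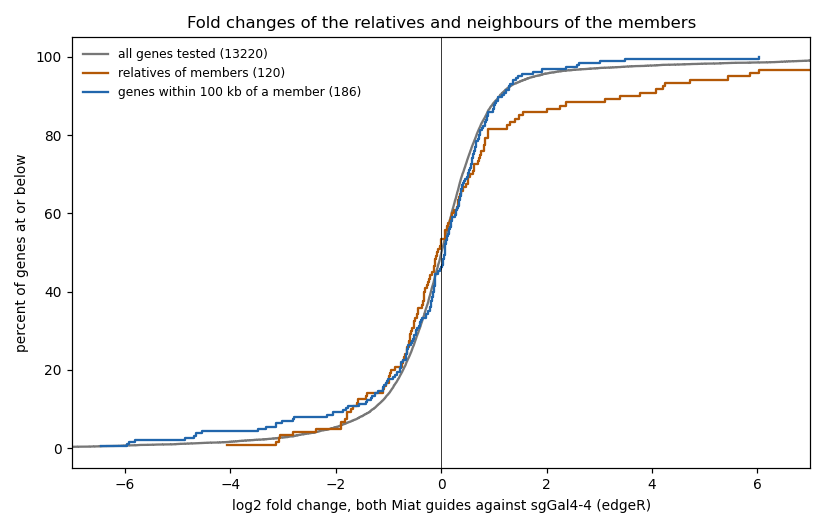
Cumulative distribution of log2 fold changes (both Miat guides against sgGal4-4) for all 13220 tested genes, 120 family relatives of the members and 186 genes within 100 kb of a member. All 3 curves cross 50% near 0, at medians of 0.00, -0.07 and 0.07.

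A set of 14 lists around pathways of the members held 134 tested genes that are not members. Of these 50 (37.3%) were higher and 52 (38.8%) lower, against 33.1% and 33.4% of all tested genes, with a median log2 fold change of -0.08. With total-count scaling 46 (34.3%) were higher and 57 (42.5%) lower, against 27.1% and 39.3%. Single lists hold few genes, so their counts are given as descriptions. Genes of the complex around Evc and of ciliary Hedgehog entry were lower in 6 of 10 and higher in 1 (median -0.39). Plexins and semaphorins, the receptors and ligands of axon guidance, were lower in 11 of 21 and higher in 5 (median -0.53), and fibroblast growth factors and their receptors were lower in 5 of 9 and higher in 2 (median -0.94). Chemokines and cytokines with their receptors divided into 5 lower and 4 higher of 10 (median -0.57), Sox factors into 6 lower and 3 higher of 12 (median -0.31), and delayed rectifier potassium channels into 4 lower and 3 higher of 7 (median -0.67). Variant histones were higher in 9 of 11 and lower in 1 (median 0.63), and organic anion and cation transporters were higher in 5 of 7 and lower in 1 (median 0.55). Of 15 postsynaptic density scaffolds 5 were higher and 4 lower (median 0.20), of 8 Eph receptors 4 were higher and 2 lower (median 0.25), and of 15 bHLH factors and Id proteins 6 moved each way (median 0.07). Of 6 fibril-associated and transmembrane collagens 2 were higher (median -0.04), of 3 germline genes 1 moved each way (median 0.25), and no other Xlr gene had enough counts to be tested. The smallest adjusted p-values belonged to Fgfr3, a growth factor receptor, which fell from 479 ± 7.88 to 42.4 ± 2.84 and 26.6 ± 1.07 CPM, to Id1, an inhibitor of bHLH factors (81.5 ± 1.74 to 5.40 ± 0.48 and 3.92 ± 0.43 CPM), and to Epha4, an ephrin receptor (74.6 ± 5.92 to 6.09 ± 0.57 and 4.04 ± 1.40 CPM). Upward they belonged to the cytokine Il33 (8.70 ± 1.18 to 149 ± 22.4 and 146 ± 5.87 CPM), to Id2 (43.4 ± 2.88 to 166 ± 9.74 and 193 ± 12.9 CPM) and to Ephb6 (2.39 ± 0.08 to 17.3 ± 0.73 and 20.8 ± 1.67 CPM).

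The promoters of the members were examined because the CpG content of a promoter is a property that the rule did not use. Promoters of genes that most cells use are usually rich in CpG, and those of genes restricted to certain tissues are often poor in it. RefSeq windows on GRCm38.p6 from 250 bases before to 50 bases after the gene start were matched for 77 members and for 9040 symbols on in the control. Some windows do not lie at the start of the transcript that was counted. The farthest were those of Dpp6 (87338 bases away), Rims3 (23070) and Bcl11a (2522). Of the promoters below, Wnt7a shows a CpG-rich member, Pde1b a CpG-poor member, and Aplp1 and Kirrel2 the neighbouring pair on chromosome 7, with GC boxes (GGGCGG or its reverse complement CCGCCC) in capitals.
Wnt7a: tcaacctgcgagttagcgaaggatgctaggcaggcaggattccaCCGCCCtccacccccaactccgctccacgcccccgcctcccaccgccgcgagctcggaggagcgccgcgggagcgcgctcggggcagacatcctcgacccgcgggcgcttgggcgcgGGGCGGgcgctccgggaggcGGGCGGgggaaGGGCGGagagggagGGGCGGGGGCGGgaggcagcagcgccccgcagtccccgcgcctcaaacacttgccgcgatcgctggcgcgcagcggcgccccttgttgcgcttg
Aplp1: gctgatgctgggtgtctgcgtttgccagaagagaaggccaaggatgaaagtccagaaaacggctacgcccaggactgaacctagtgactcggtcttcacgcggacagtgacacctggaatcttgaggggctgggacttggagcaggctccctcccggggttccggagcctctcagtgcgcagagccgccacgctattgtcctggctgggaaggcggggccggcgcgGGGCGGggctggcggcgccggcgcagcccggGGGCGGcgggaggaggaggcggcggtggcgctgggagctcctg
Kirrel2: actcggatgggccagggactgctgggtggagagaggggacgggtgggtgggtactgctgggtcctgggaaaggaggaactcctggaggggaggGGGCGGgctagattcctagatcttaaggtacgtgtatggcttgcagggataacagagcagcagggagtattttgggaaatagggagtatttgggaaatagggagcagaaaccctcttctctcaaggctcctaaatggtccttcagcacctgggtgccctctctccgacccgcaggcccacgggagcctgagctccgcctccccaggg
Pde1b: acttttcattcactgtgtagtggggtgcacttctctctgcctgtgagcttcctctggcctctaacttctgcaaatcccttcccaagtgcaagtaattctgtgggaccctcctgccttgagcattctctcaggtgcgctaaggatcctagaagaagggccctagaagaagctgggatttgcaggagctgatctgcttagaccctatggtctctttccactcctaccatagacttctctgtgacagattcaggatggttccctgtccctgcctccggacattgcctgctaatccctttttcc
The windows lie at chr6:91411304-91411603 on the minus strand for Wnt7a, chr7:30445533-30445832 on the minus strand for Aplp1, chr7:30457466-30457765 on the minus strand for Kirrel2 and chr15:103514727-103515026 on the plus strand for Pde1b.

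The CpG ratio compares the number of CpG dinucleotides with the number that the C and G content of the window would give. It was 0.970 for Wnt7a, whose window holds 42 CpG dinucleotides and 6 GC boxes, and 0.767 for Aplp1. It was 0.318 for Kirrel2 and 0.105 for Pde1b, whose window holds 2 CpG dinucleotides and no GC box. Wnt7a and Pde1b kept 1.27% and 3.38% of their control levels with sgMiat-6, and 1.65% and 2.08% with sgMiat-96. Over the 77 members the median ratio was 0.473, against 0.801 over the 9040 symbols on in the control. A ratio of at least 0.6 was found in 30 members (39.0%) and in 79.3% of the symbols on in the control. The members were expressed at low levels in the control and lower genes had fewer CpG-rich promoters: among genes below 20 CPM the shares were 34.5% of 55 members and 66.1% of 2601 symbols. Grouped by the level left with the Miat guides, the share of CpG-rich promoters was 41.3% where at most 5% was left, 53.6% from there to 25%, 74.3% from 25% to 50%, 82.3% from 50% to 100% and 80.3% above 100%. These shares are descriptions of the promoters and carry no test.

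**Figure D5:**
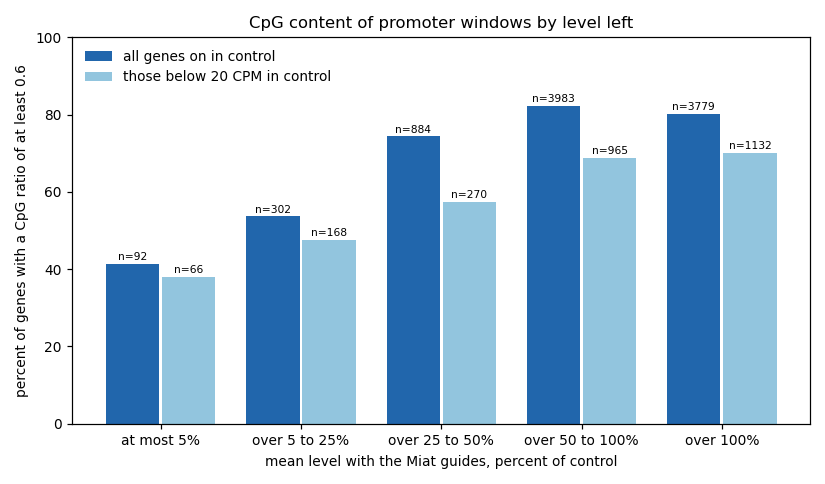
Share of genes whose promoter window has a CpG ratio of at least 0.6, by the mean level left with the Miat guides as percent of control (bars start at 0, number of genes above each). The share goes from 41.3% where at most 5% was left to 82.3% where 50% to 100% was left, and it rises in the same order among genes below 20 CPM in the control.

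Short motifs were counted on both strands of the same windows. The GC box was present in 54.5% of member windows, 68.5% of the windows of symbols on in the control and 47.6% of all 17750 windows. The TATA box (TATAAA) was present in 16.9%, 6.07% and 12.9% in the same order, and the E box (CANNTG), which can overlap other motifs, in 81.8%, 60.3% and 68.5%. CCAAT was found in 37.7%, 39.3% and 38.9%. The core of the cyclic AMP response element (TGACG) was present in 14.3%, 34.0% and 24.5%, and its full palindrome (TGACGTCA), which contains that core, in no member window, 3.51% and 2.38%. The Gli sequence GACCACCCA, the target of the Hedgehog pathway's factors, was in no member window and in 0.210% of windows of symbols on in the control. TAATCC, a homeodomain sequence, was present in 9.09%, 5.20% and 6.59%, and the octamer ATGCAAAT in 1.30%, 1.32% and 1.68%. GC boxes and the CpG-containing elements follow the CpG content of a window, and a match is not evidence of a bound site.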

How the data were processed

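RNA-seq tables of 6 libraries were used. Per the labels' protocols, purified total RNA (1 µg) entered an mRNA library kit. The submitters' processing notes name STAR and the build GRCm38 (mm10). For the counter, annotation and strand setting, the sources used here give nothing. Each deposited table gives a count, an FPKM and a TPM per RefSeq transcript, per the file headers. The deposited counts are whole numbers. Only the deposited FPKM was used beside them, for zeros and for levels per length, and the deposited TPM was not used.

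The tables hold 33984 rows for 24063 symbols, of which 5261 have more than 1 row. The row with the highest total count was kept per symbol. The table of sgMiat-96 replicate 2 gives 1 count to 11223 rows whose FPKM is 0, and to 20 member genes among them. These were set to 0, with the listed counts as an alternative. CPM is the count over the sum of kept rows.

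The members, gene lists, families and motifs were chosen with earlier results of these data known. The test on counts used edgeR 4.0.16 with limma 3.58.1 (R 4.3.3) after filterByExpr and TMM scaling, in a model of 3 groups over 6 libraries with 3 residual degrees of freedom, quasi-likelihood tests and Benjamini-Hochberg adjustment over 13220 genes. The biological coefficient of variation was 0.0986. Calls were made at an adjusted p under 0.05, and fitted log2 values can differ in size from ratios of CPM because of the TMM scaling. DESeq2 1.42.0 was an alternative. Standard errors are the absolute log2 value over the square root of F. Floors of 3 counts cover only the counting error of the group at 0 counts. Clopper-Pearson intervals of 95% cover counting error only. The script was tested on simulated data. Coordinates come from GENCODE M21 (GRCm38), in which 23802 symbols were matched, and promoters from RefSeq (GRCm38.p6). Promoter windows were found for 85.6% of the 90 members outside chromosome 18, which was left out, and for 82.5% of the symbols on in the control.

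Values in every library were given for the 12 members with the highest control CPM, members at 0 in all Miat-guide libraries, the 5 largest fitted called differences each way between the guides and the 3 members nearest the limit. Others are given by role, and relatives and members beyond these were chosen for naming after their values were seen. Of the lists, 3 genes each way and, of the neighbours, 5 each way with the smallest adjusted p were named. The values of some genes that these rules name are not reported here. The replicate numbers are shared between groups but were not used to pair the samples in the main model.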

Additional observations from a re-analysis of the deposited data

Results flagged for a closer look

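Each gene here differed between the guides in edgeR's quasi-likelihood test of sgMiat-96 against sgMiat-6, at an adjusted p under 0.05, although both guides carry the same label. Such calls were common: 17.8% of all 13220 genes tested were higher and 18.8% lower with sgMiat-96, against 20.8% and 5.21% of the 96. The rule that chose the genes limited the mean of these 4 libraries and not this difference, and all 6 libraries entered the model, so the calls are descriptions. The differences of Rims3 (-4.58, 6 counts against 0), Slc16a14 (-1.20), Ank2 (-0.90), Tshz2 (-0.77) and Tns1 (-0.77) were negative on the log2 scale, lower with sgMiat-96. Higher with sgMiat-96 were Gpr162 (0.83), Nptx1 (0.90), Igfbp4 (1.20), Hps1 (1.38), Ptpn5 (1.67), Tslp (2.01), Evc (2.13), Osr2 (2.19), Leprel2 (2.35), Hr (2.43), Ptrf (2.43), Elavl3 (2.49), Gpm6a (2.65), Itpripl2 (3.24) and Aplp1 (3.87). Also higher were Mical1 (5.03) and Ltbr (5.15). For Steap3 (4.75), Ackr3 (4.97), Runx1 (5.73) and Rims3 the fitted value rests on a group at 0 counts and is no bound. The call of Hps1 was lost in 10 of 11 settings, the most of any of these genes, while its log2 difference lay between 1.23 and 1.52.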

How the results depend on the processing

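With the limit at 2% or 10% of the control level the set held 50 or 176 genes, and with each Miat-guide library required to lie at or under 5% it held 60. The other 7 rules tried gave sets of 65 to 124 genes, and leaving out 1 library gave 90 to 104. With sgMiat-96 alone the rule gave 121 genes, 81 of them among the 96, and with sgMiat-6 alone 105, of which 90 were. The 88 genes of the rule with TMM-scaled CPM were all among the 96. Between the guides, total-count scaling gave 8 genes lower with sgMiat-96 in place of 5, Ildr2, Nhs and Ppp1r1a being called beyond them. Leaving out 1 library gave 7 to 18 of the 96 genes higher and 1 to 5 lower, and 7 of 25 calls held in all 11 settings. Neighbours lower with both guides numbered 28 within 50 kb and 151 within 250 kb, and list genes 47 to 53, neighbours 50 to 61, without 1 library. The log2 fold change of Nptxr lay between -0.076 and 0.057 without 1 library, turning positive without sgGal4-4 replicate 1 or sgMiat-96 replicate 1 (0.038), and the cause was not tested. Of the other 57 named genes that are not members, none changed direction in the 11 settings. The replicate numbers are shared by the groups, and same-numbered libraries had correlations of their deviations of 0.01, -0.09 and -0.21. Whether same-numbered libraries share a culture or a batch cannot be told from these values. With the replicate block 17 genes were higher and 5 lower between the guides, 52 list genes and 58 neighbours were lower, 3 of the 25 calls (Elavl3, Hps1 and Steap3) were lost, and none of the named genes outside the set changed its call. At 0.0509 to 0.0542 CPM per count, 5 of the 56 genes with under 20 counts were called between the guides.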
